A study of Mus musculus with 6 samples.

Results

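The epidermal growth factor (EGF) receptor genes and the genes of their ligands were read in mouse bone marrow stromal cells that make stem cell factor and in unselected marrow. The set held 10 named genes, the 4 receptors Egfr, Erbb2, Erbb3 and Erbb4 and the 6 ligands Areg, Ereg, Hbegf, Btc, Tgfa and Nrg1. They were named by family membership, and each was represented by the array row that listed its symbol alone, taking the row with the highest mean where a gene had several. All 4 receptors and 5 ligands had such a row, so 9 of the 10 genes were among the 19938 genes tested. Areg, which encodes amphiregulin, was not analysed here.

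The series held 6 Affymetrix whole-transcript arrays. The 3 Scf-GFP+ arrays carried RNA of cells sorted for green fluorescent protein from young adult mice heterozygous for a knock-in of that protein at the stem cell factor gene, so 1 copy of Kitl was left unmodified. The 3 whole bone marrow arrays carried RNA of unselected marrow cells from young adult wild-type mice. All mice had a C57BL/6 background, and 5000 cells were sorted for each array, with a second sort named for the Scf-GFP+ cells alone. Cell population, genotype and handling therefore changed together and cannot be told apart. No label ties the aliquots to animals, and the p-values cover only how far these 6 arrays vary, some of it perhaps technical. Whole marrow is a mixture of many cell types, and in such bulk samples fewer cells of a type and less RNA per cell cannot be told apart.

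The EGF family signals through receptor tyrosine kinases on the cell surface. Egfr encodes the receptor for EGF, transforming growth factor alpha, amphiregulin, epiregulin, betacellulin and heparin-binding EGF. Erbb2 encodes a receptor with no known soluble ligand that pairs with the others, Erbb3 a neuregulin receptor with little kinase activity, and Erbb4 an active kinase that binds neuregulins and some EGF-like ligands. The ligands are made as membrane-anchored precursors that surface proteases release, and the activated receptors signal through the ERK and phosphoinositide 3-kinase pathways. In bone, EGF receptor signalling is known to act in cells of the osteoblast lineage.

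Marker genes went with the labels of both populations. Kitl, on whose locus the sort rested, measured 10.16 to 10.83 on the Scf-GFP+ arrays and 4.56 to 5.05 on the whole marrow arrays, on the log2 signal scale that all values share. Perivascular stromal markers were called higher in the Scf-GFP+ cells for 8 of 8 genes, with list means of 11.10 to 11.22 against 5.75 to 5.86, as were 4 of 6 osteoblast markers, with 1 lower, and 4 of 8 adipocyte markers. Called lower were 7 of 7 erythroid, 7 of 7 B cell, 8 of 10 neutrophil, 5 of 7 monocyte and macrophage, 5 of 7 eosinophil, basophil and mast cell, 3 of 7 T and NK cell and 1 of 5 megakaryocyte markers. Of 8 endothelial markers, 2 were called higher and 1 lower. Of 6 Schwann cell markers, Erbb3 among them, 1 was called higher and 0 lower. Over all genes tested, 9.01% were called higher and 7.89% lower, and counts of 1 or 2 are too small to set against these shares. The mean of the neutrophil list was 9.21 on Scf-GFP+ replicate 1 and 5.92 and 6.09 on replicates 2 and 3. In whole marrow it was 11.84 to 11.98. Scf-GFP+ replicate 1 therefore carried more neutrophil transcripts than the other Scf-GFP+ arrays, though not of every gene in the list. Replicates 1 and 2 of the Scf-GFP+ cells read high for Xist, an RNA of female cells, at 11.50 and 11.81, and the other 4 arrays read 4.99 to 5.10. The Scf-GFP+ arrays therefore did not all carry RNA of the same animals. High Xist occurred in the Scf-GFP+ group alone, so sex was also uneven between the groups, and the main fit had no term for it.

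Egfr and Erbb2 were the members whose transcripts rose in Scf-GFP+ cells, and both lie on mouse chromosome 11. Their promoters are shown because these genes carry the difference described next. Each window holds 250 bases before the gene's start and 50 after it, from the RefSeq tables of build GRCm38.p6, plus strand, written 5′ to 3′ with any GC box in capitals. A GC box was searched as GGGCGG on both strands, and 35.7% of 32851 promoter windows of the same length held it. The Egfr window is chr11:16751953-16752252, and the Erbb2 window is chr11:98412234-98412533.

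Egfr promoter: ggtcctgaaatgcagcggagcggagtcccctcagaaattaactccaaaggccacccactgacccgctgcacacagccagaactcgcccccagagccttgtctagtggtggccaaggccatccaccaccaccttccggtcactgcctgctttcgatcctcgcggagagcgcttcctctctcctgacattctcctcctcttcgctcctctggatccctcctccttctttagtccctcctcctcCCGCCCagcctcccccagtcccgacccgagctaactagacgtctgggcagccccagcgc

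Erbb2 promoter: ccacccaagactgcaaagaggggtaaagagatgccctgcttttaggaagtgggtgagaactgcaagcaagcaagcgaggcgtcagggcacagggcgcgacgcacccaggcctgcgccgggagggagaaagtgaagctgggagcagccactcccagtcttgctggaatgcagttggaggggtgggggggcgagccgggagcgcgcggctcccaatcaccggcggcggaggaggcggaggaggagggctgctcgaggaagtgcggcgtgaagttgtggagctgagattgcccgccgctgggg

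Both windows were rich in G and C, at 62.3% for Egfr and 66.0% for Erbb2, where the median of all windows was 52.7%. The Egfr window had 1 GC box, read on the minus strand, starting at position -9 when the first base of the gene is 0. The Erbb2 window had none, but held 1 CCAAT box (CCAAT, in 37.4% of windows) at position -41 and 1 E-box (CANNTG, in 72.3% of windows) at position -82. Neither window held a TATA box (TATAAA, in 13.6% of windows), an AP-1 site (TGANTCA, in 7.8%) or the core letters CCCNNGGG of a site for early B cell factors (in 13.7%). Promoter windows were found for 6 of the 10 named genes, and no match or lack of one was read as binding or its absence.

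Egfr stood far apart between the populations. It measured 9.83, 9.29 and 9.68 on Scf-GFP+ replicates 1, 2 and 3, and 5.61, 5.69 and 5.54 on whole marrow replicates 1, 2 and 3. Every Scf-GFP+ array was higher than every whole marrow array, with a gap wider than the spread within either group. The means were 9.60 ± 0.28 (SD, n = 3) and 5.61 ± 0.08 (SD, n = 3), a 15.9-fold difference (log2 difference 3.99 ± 0.16 SE, 95% interval 3.61 to 4.36, limma adjusted p = 1.0e-05). Of all genes tested, 0.898% had a larger difference in this direction. RMA values carry no detection call, and the whole marrow values lay not far above the first quartile of the arrays (5.193 to 5.312), where arrays lose resolution, so the size of the fold is approximate. Without Scf-GFP+ replicate 1, the array with neutrophil transcripts, the difference was 3.87 (adjusted p = 4.99e-05). The 8 stromal markers and part of the osteoblast and adipocyte markers were called higher on the same arrays, and the part of those cells in the result was not tested.

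Erbb2, the partner receptor, was also higher in Scf-GFP+ cells, by a smaller margin. It measured 7.54, 7.86 and 8.38 on Scf-GFP+ replicates 1, 2 and 3 and 6.76, 6.70 and 6.61 on the whole marrow arrays. The groups did not overlap, replicate 3 was the highest and replicate 1 the lowest of the Scf-GFP+ arrays, and the whole marrow arrays were close together. The difference was 2.36-fold (log2 difference 1.24 ± 0.21 SE, 95% interval 0.72 to 1.75, adjusted p = 0.00597), and the interval includes differences below 2-fold. Tested against a 1.5-fold difference with limma's treat, Erbb2 did not pass (adjusted p = 0.0748, from 0.00246 to 0.0748 over 16 alternatives), and without Scf-GFP+ replicate 3 the difference was 1.01 (adjusted p = 0.00521). A further row of the table lists Erbb2 together with Sympk and so names neither gene. It measured 5.32, 4.96 and 5.06 on the Scf-GFP+ arrays and 8.90, 7.60 and 7.09 on the whole marrow arrays, the opposite direction, and it was not counted for Erbb2.

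**Figure D1:**
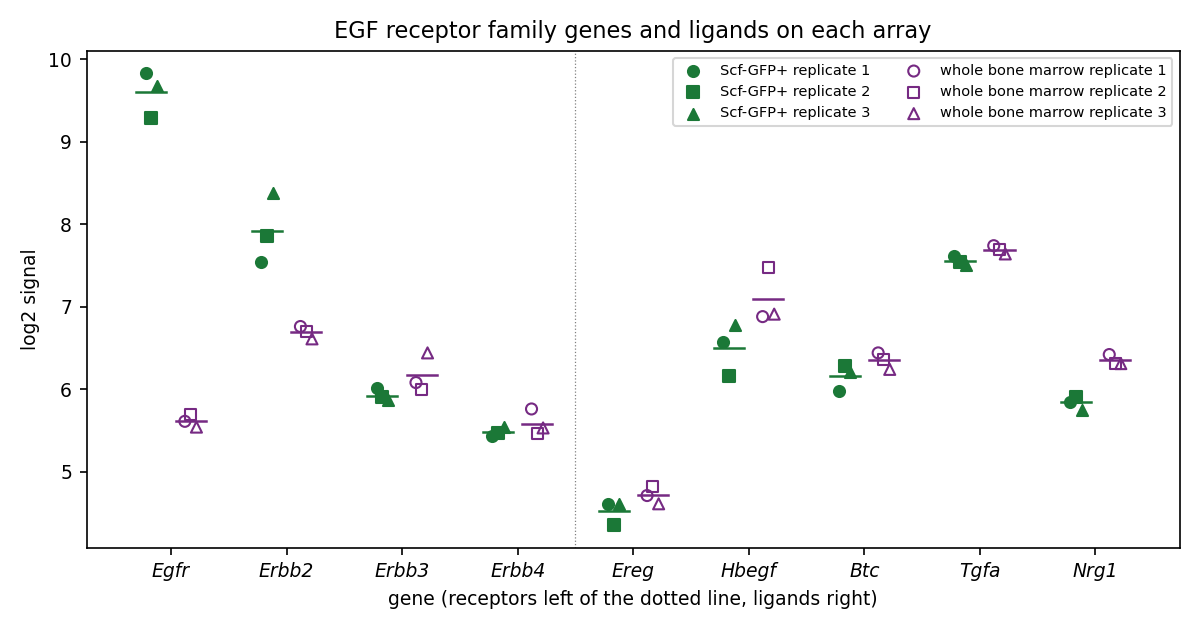
Log2 signal (vertical axis) of the 9 tested genes (horizontal axis) on each of 6 arrays, filled green for Scf-GFP+ and open purple for whole bone marrow, with marker shape for the replicate number and short lines for group means (n = 3). Egfr reads 9.29 to 9.83 against 5.54 to 5.69, Erbb2 reads 7.54 to 8.38 against 6.61 to 6.76, and the other 7 genes lie close together.

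Neither neuregulin receptor passed the test. Erbb3 measured 6.01, 5.90 and 5.87 on the Scf-GFP+ arrays and 6.08, 6.00 and 6.44 on the whole marrow arrays, where the groups overlapped (log2 difference -0.25 ± 0.14 SE, 95% interval -0.59 to 0.09, adjusted p = 0.25). Erbb4 measured 5.43, 5.47 and 5.54 against 5.76, 5.46 and 5.53, again with overlap (log2 difference -0.10 ± 0.12 SE, 95% interval -0.38 to 0.18, adjusted p = 0.572). The intervals of both receptors lie inside a 2-fold difference in either direction.

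No ligand was called in either direction by limma. Of the 5 tested, 2 were lower at an unadjusted p below 0.05, where 19.6% of all genes were, 0 were higher at that level, and treat called 0. Each had a negative difference, against a median of -0.075 over all genes. Nrg1, which encodes neuregulin 1, a ligand of Erbb3 and Erbb4, measured 5.85, 5.91 and 5.75 on the Scf-GFP+ arrays and 6.42, 6.31 and 6.31 on the whole marrow arrays. All Scf-GFP+ arrays were below all whole marrow arrays, and the log2 difference of -0.51 ± 0.10 SE passed the adjusted p (0.0109), as 13.2% of all genes did on the lower side, but not the 2-fold threshold.

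Hbegf, which encodes heparin-binding EGF, measured 6.57, 6.16 and 6.78 on the Scf-GFP+ arrays and 6.88, 7.48 and 6.91 on the whole marrow arrays. The groups did not overlap, but the gap between them was small beside the spread within each, and the difference did not pass (-0.59 ± 0.23 SE, 95% interval -1.13 to -0.04, adjusted p = 0.11). Tgfa, which encodes transforming growth factor alpha, measured 7.61, 7.54 and 7.50 against 7.74, 7.69 and 7.64. The groups of Tgfa did not overlap either, by a margin of a few hundredths, and the difference of -0.14 ± 0.10 SE did not pass (adjusted p = 0.339).

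Btc and Ereg encode betacellulin and epiregulin, which bind both Egfr and Erbb4. Btc measured 5.98, 6.28 and 6.21 on the Scf-GFP+ arrays and 6.44, 6.36 and 6.24 on the whole marrow arrays. Ereg measured 4.61, 4.35 and 4.61 against 4.71, 4.82 and 4.61. The groups overlapped for Btc and touched for Ereg, and neither difference passed (both -0.19 ± 0.12 SE, adjusted p = 0.316 and 0.304). The value of Ereg was the same to the last digit on Scf-GFP+ replicates 1 and 3 and whole marrow replicate 3, which occurred in 59 of 28940 rows of the table, and the gene read under each array's first quartile throughout. By order in the RefSeq table, Ereg, Areg and Btc are neighbouring genes on chromosome 5, next to the further ligand gene Epgn.

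Over the whole table, 9.01% of genes were called higher in Scf-GFP+ cells and 7.89% lower at an adjusted p below 0.05 with at least a 2-fold difference. Among the members, 2 of 9 were called higher and 0 of 9 lower. At an unadjusted p below 0.05, 2 of 9 were higher and 2 of 9 lower, against 18.1% and 19.6% of all genes. The groups did not overlap for 2 members higher and 3 lower, where 19.0% and 26.4% of all genes had such a split. A count of 2 or 3 among 9 genes is too small to set the family apart from these shares.

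**Figure D2:**
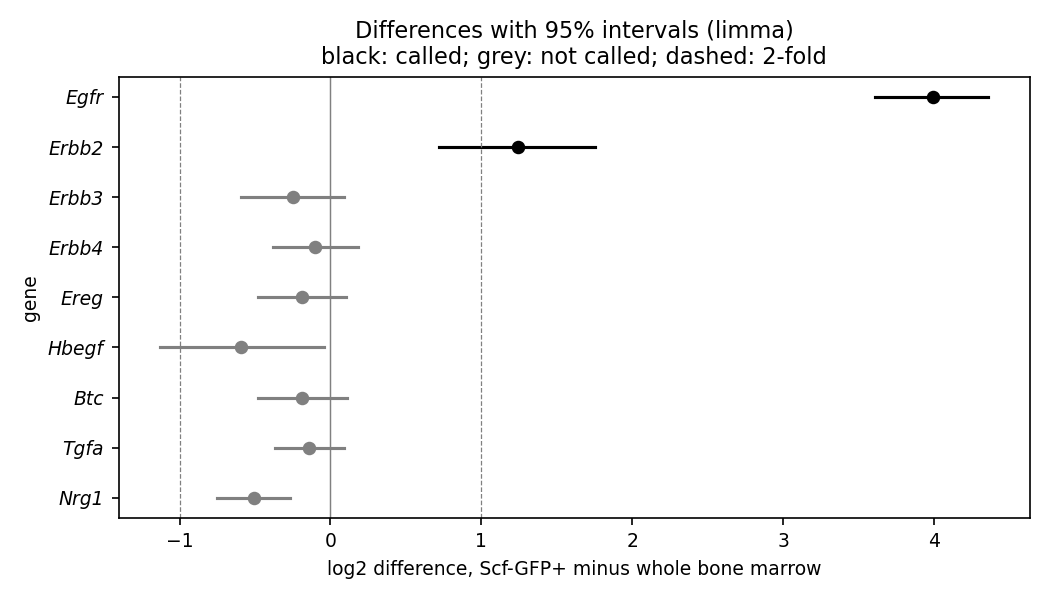
Log2 difference, Scf-GFP+ minus whole bone marrow (horizontal axis), of the 9 tested genes, with limma's 95% intervals as bars, black for called genes and grey for the rest, and dashed lines at 2-fold. Egfr at 3.99 and Erbb2 at 1.24 are called, while the 7 other genes lie between -0.59 and -0.10.

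The profiles nearest to the called members were sought over the 6 arrays, after each gene's mean was subtracted, as the smallest root mean square difference in log2 signal. For Egfr these were C6, which encodes a terminal complement component, at 0.145, Vsnl1, which encodes a neuronal calcium sensor, at 0.154, and Mpdz, which encodes a multi-domain scaffold protein, at 0.161. For Erbb2 they were Arsj, an arylsulfatase gene, at 0.055, the creatine transporter gene Slc6a8 at 0.087, and Decr1, an enzyme gene of fatty acid oxidation, at 0.098. With 6 arrays in 2 groups, this measure reflects mostly the size of the group difference.

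Further EGF-like ligands showed no call. Egf, the founding ligand, differed by 0.12 ± 0.11 SE, Epgn, epigen, by -0.13 ± 0.14, Nrg2 by 0.30 ± 0.24, Nrg3 by 0.34 ± 0.31 and Nrg4 by -0.85 ± 0.17. Nrg4, which encodes a ligand of Erbb4 known from brown fat, measured 5.03, 4.83 and 4.98 on the Scf-GFP+ arrays and 6.14, 5.71 and 5.53 on the whole marrow arrays. Its groups did not overlap, as for 26.4% of all genes on the lower side. Its limma adjusted p was 0.012, and 13.2% of all genes passed 0.05 on that side, but the difference fell short of 2-fold. Limma called 0 of these 5 genes, 1 was lower at an unadjusted p below 0.05, where 19.6% of all genes were, and treat called 0. Nrg3 measured 4.61, 4.81 and 5.85 on the Scf-GFP+ arrays and 4.81, 4.64 and 4.79 on the whole marrow arrays. All arrays but Scf-GFP+ replicate 3 read below their first quartile. Nrg3 was called higher, at 1.10, only with a term for the arrays high in Xist. That term leaves Scf-GFP+ replicate 3 alone against whole marrow, so the call rests on 1 array.

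Genes that release or mature the ligands, listed together with the release inhibitor gene Timp3, were more often called higher than lower. Of 13 tested, 6 passed as higher and 1 as lower (2 as lower without Scf-GFP+ replicate 3), and the median difference was 0.75. Over all genes tested, 9.01% were called higher and 7.89% lower, and the median difference was -0.075. Timp3, an inhibitor of the ligand-releasing protease encoded by Adam17, was higher by 3.91 ± 0.53 SE (4.52 without Scf-GFP+ replicate 2). Over 16 alternatives the difference of Timp3 lay between 3.49 and 4.76. The membrane protease genes Adam12 and Adam9 were higher by 2.36 ± 0.48 (2.96 without Scf-GFP+ replicate 3) and 1.70 ± 0.17. Adam12 measured 8.72, 8.55 and 6.83 on Scf-GFP+ replicates 1, 2 and 3, and its difference lay between 1.15 and 2.96 over 16 alternatives. The pseudoprotease genes Rhbdf1 and Rhbdf2, whose products bring the Adam17 protease to the cell surface, went in opposite directions, by 1.67 ± 0.18 and -1.21 ± 0.17. Adam17 and Adam10, the main sheddases of the family, named here for that role and outside the naming rule, differed by 0.75 ± 0.28 (adjusted p = 0.0954) and -0.35 ± 0.31 (adjusted p = 0.461) and were not called.

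Surface proteoglycans, which bind the heparin-binding ligands, and their partners were tested for 12 genes, of which 5 passed as higher and 1 as lower. The median difference of this list was 0.74, against -0.075 over all genes, of which 9.01% were called higher and 7.89% lower. Sdc2, syndecan 2, measured 10.82, 10.82 and 11.10 on the Scf-GFP+ arrays and 5.60, 4.40 and 4.72 on the whole marrow arrays. The difference of 6.01 ± 0.30 SE (adjusted p = 2.35e-05) is approximate in size, since whole marrow read mostly below the first quartile of the arrays. It was followed by the glypican genes Gpc6 at 2.79 ± 0.36 and Gpc4 at 2.48 ± 0.21, and by the integrin gene Itgb1 at 1.80 ± 0.12. Cd44, a hyaluronan receptor gene active in many blood cells, was called lower at -1.38 ± 0.20.

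Several genes that restrain the receptors rose beside Egfr. Errfi1, which encodes a feedback inhibitor that binds the EGF receptor kinase, measured 10.88, 10.88 and 10.65 on Scf-GFP+ replicates 1, 2 and 3 and 6.46, 6.10 and 6.03 on the whole marrow arrays. All Scf-GFP+ arrays lay far above all whole marrow arrays (log2 difference 4.61 ± 0.15 SE, adjusted p = 4.35e-06). Of 21 restraint and turnover genes, 6 were called higher, 2 lower and 13 neither, with a median of 0.74. The shares over all genes were 9.01% higher and 7.89% lower, with a median of -0.075. Lrig3, of a family of transmembrane receptor regulators, was higher by 2.34 ± 0.21, and Spry1 and Spred1, inhibitors of the path to ERK, by 2.21 ± 0.40 and 1.78 ± 0.18. Those lower were Sh3kbp1, an adaptor gene of receptor internalisation, at -2.24 ± 0.21 and Socs4, a suppressor of cytokine signalling gene, at -1.31 ± 0.18.

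Adaptors and kinases that act after the receptor showed no common direction. Of 36 tested, 7 were called higher, 3 lower and 26 neither, with a median of 0.10. The shares over all genes were 9.01% higher and 7.89% lower, with a median of -0.075. Those higher were led by Pik3r3, a regulatory subunit gene of phosphoinositide 3-kinase, at 3.90 ± 0.34 SE, the adaptor genes Grb10 at 2.57 ± 0.26 and Gab1 at 2.04 ± 0.24, and Plcg1, a phospholipase C gene, at 1.55 ± 0.28. Its blood-cell counterpart Plcg2 was lower at -3.38 ± 0.34, Pik3cb, a catalytic subunit gene, at -2.66 ± 0.19, and Grb2, which links the receptors to Ras, at -1.11 ± 0.11. Grb2 measured 8.12, 8.07 and 8.29 on the Scf-GFP+ arrays and 9.33, 9.32 and 9.15 on the whole marrow arrays. Its groups did not overlap, as for 26.4% of all genes on the lower side. With a term for the arrays high in Xist, Grb2 (-0.98, adjusted p = 0.0102) and Rhbdf2 (adjusted p = 0.0329) fell just short of 2-fold and lost the call.

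Early response genes that the ERK pathway, among other signals, switches on were mostly lower in Scf-GFP+ cells. Of 23 tested, 14 were called lower, 2 higher and 7 neither, with a median of -1.52. The shares over all genes were 7.89% lower and 9.01% higher, with a median of -0.075. Atf3, a stress-responsive transcription factor gene, differed by -4.08 ± 0.17 SE, Egr2, a zinc finger factor gene, by -2.96 ± 0.25, and the immediate early genes Ier3 and Ier2 by -2.91 ± 0.17 and -2.47 ± 0.19. On the same arrays the list means were 6.26 to 6.43 against 8.30 to 8.39 for monocyte and macrophage markers and 6.04 to 6.48 against 10.42 to 10.74 for erythroid markers, in Scf-GFP+ cells and whole marrow. The part of these cells in the result was not tested, and the difference in sorting cannot be told apart from the groups. The higher calls were Etv1 at 2.14 ± 0.56 and Etv5 at 1.80 ± 0.44, transcription factor genes of the Ets family. Etv1 was lost without any 1 of 5 arrays, all but Scf-GFP+ replicate 3, with adjusted p between 0.0754 and 0.0917 (from 0.000161 to 0.105 over 16 alternatives). Etv5 was lost without whole marrow replicate 1 or 3 (adjusted p = 0.0686 and 0.053, from 0.0061 to 0.196 over 16 alternatives). The count of higher calls fell to 1 without whole marrow replicate 2 or Scf-GFP+ replicate 1 or 2, and to 0 without whole marrow replicate 1 or 3.

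**Figure D3:**
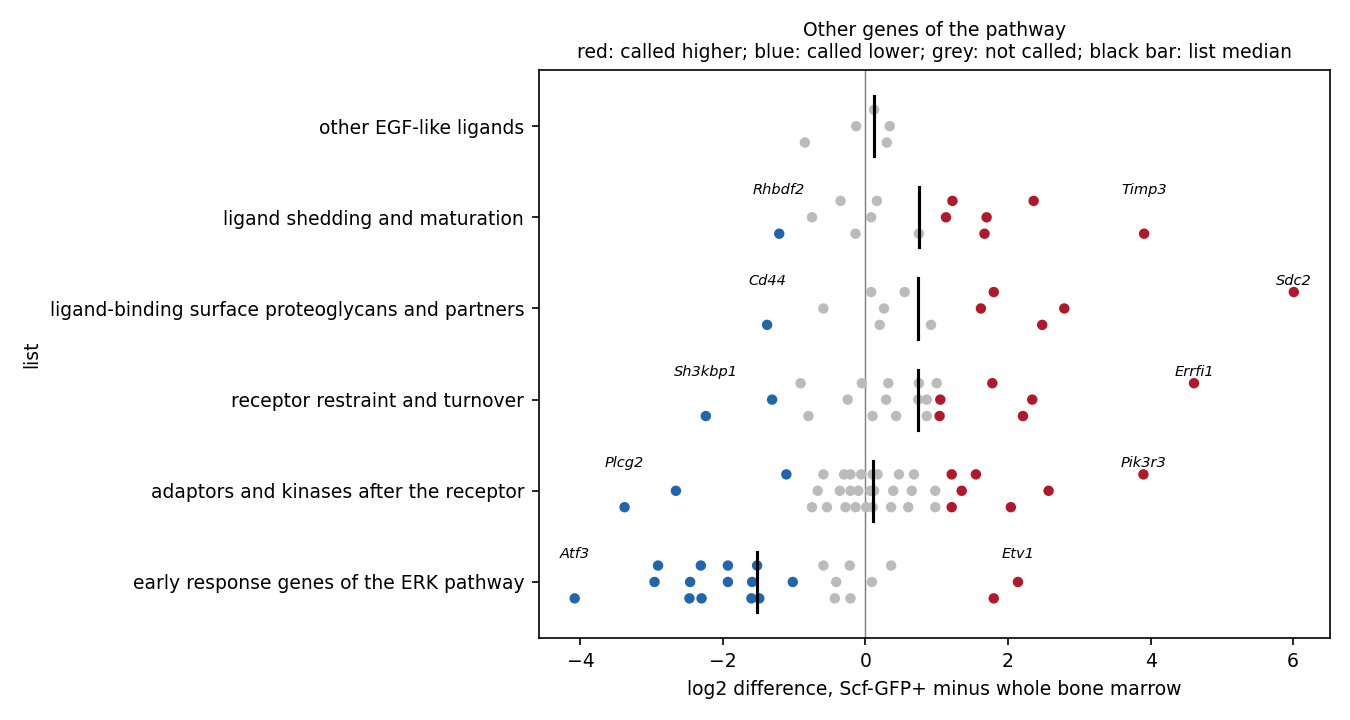
Log2 difference, Scf-GFP+ minus whole bone marrow (horizontal axis), of each tested gene in 6 lists of pathway genes (vertical axis), red for called higher, blue for called lower and grey for not called, with a black bar at each list's median. The early response genes have the only list median below 0, at -1.52, and Sdc2 at 6.01 and Errfi1 at 4.61 are the highest points.

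Across all 110 tested genes of these lists, 26 were called higher and 21 lower, and their median difference was 0.10. Over the whole table, the shares were 9.01% higher and 7.89% lower, and the median was -0.075. The calls of Egfr held under all 16 alternatives, with differences from 3.87 to 4.14. Those of Erbb2 held under 15 of them, with differences from 1.01 to 1.69. The value of 1.69 came with the term for arrays high in Xist, which leaves Scf-GFP+ replicate 3 alone against whole marrow. The difference of Nrg1 stayed between -0.59 and -0.46.

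**Figure D4:**
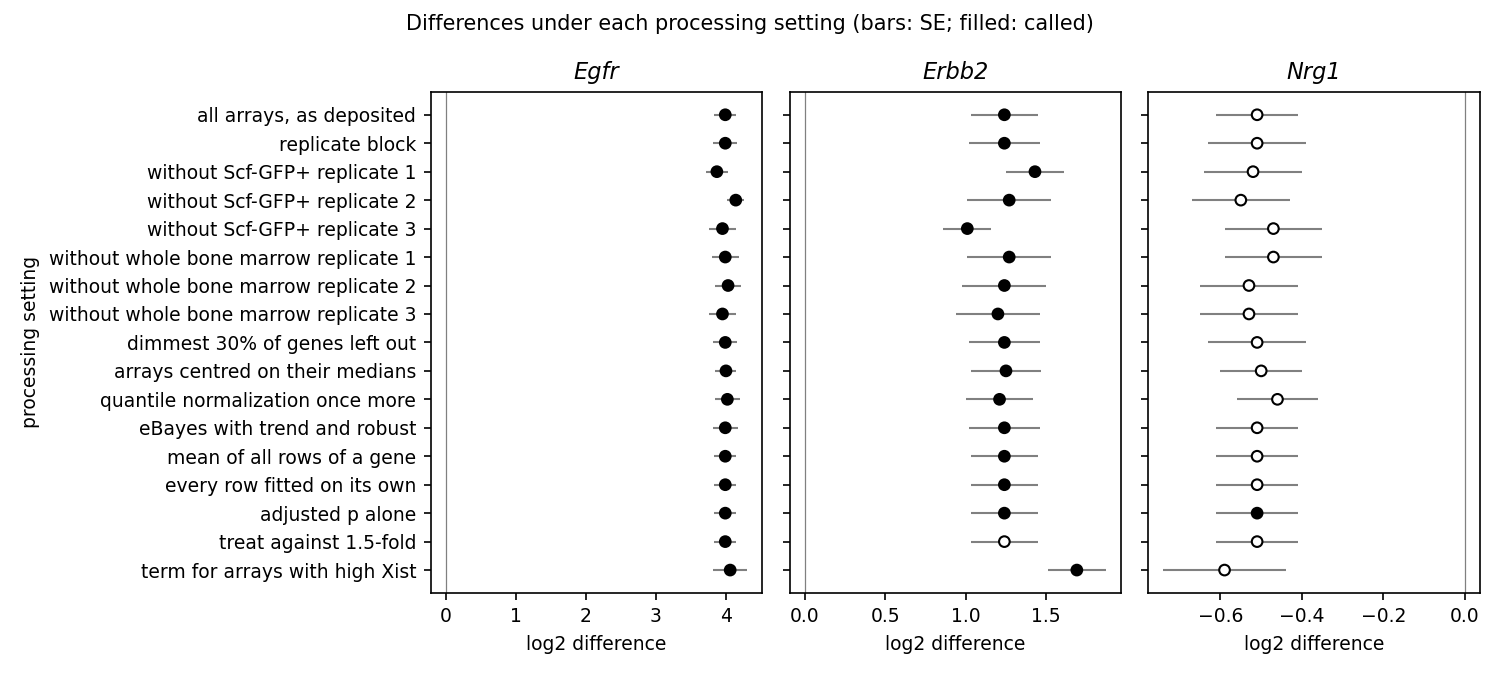
Log2 difference, Scf-GFP+ minus whole bone marrow (horizontal axes), of Egfr, Erbb2 and Nrg1 under each processing setting (vertical axis), with bars for the standard error and filled points where the gene was called. Egfr is called in every setting shown, Erbb2 in all but treat against 1.5-fold, and Nrg1 only where no fold threshold was set.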

How the data were processed

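Log2 values of the 6 arrays came as 1 deposited table, for which RMA, limma and affy are named, with no version or role, per the submitters' processing notes. The build of the array annotation is not given in the sources used here. Values were used as deposited. Of 28940 rows, 21789 listed 1 gene symbol, 1621 several and 5530 none. Entrez identifiers served to update symbols from a RefSeq table of assembly GRCm38.p6, where 91 rows found no match and kept theirs. For 999 genes with several rows, the row with the highest mean stood for the gene.

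The 19938 genes were fitted in R 4.3.3 by lmFit and eBayes of limma 3.58.1, without covariates, and p-values were adjusted by Benjamini-Hochberg over all of them. A call needed a difference of 2-fold or more and an adjusted p below 0.05. The fit was tested on simulated data. Named genes are the members, the further ligands, up to 4 called genes per direction in each pathway list, the 3 nearest profiles of each called member, and Kitl. Named outside this rule, for their role or position, are Adam17, Adam10, Xist and the neighbours of members. The members and lists were chosen with earlier results of these data known, and lists are described by counts and medians without a test. Promoter sequences come from RefSeq. Same-numbered replicates did not deviate together (correlations of deviations -0.063, -0.022 and 0.066), so the numbers were not taken to pair samples. The number of arrays limits the precision.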

Additional observations from a re-analysis of the deposited data

How the results depend on the processing

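The members, the named pathway genes and the counts of calls were recomputed under up to 16 alternatives, which were each array left out, a replicate block, a filter on the dimmest 30% of genes, 2 other scalings, another variance model, 2 other choices of row, 2 other call rules and a term for arrays high in Xist. With an adjusted p alone, members called lower rose from 0 to 1, which was Nrg1, and the genes called higher and lower numbered 2758 and 2635 in place of 1796 and 1574. With treat against 1.5-fold, members called higher fell from 2 to 1. The other settings left the members' counts at 2 and 0, and no direction of a called member turned. With the replicate number as a block, Egfr and Erbb2 stayed called (adjusted p = 0.000337 and 0.0172), and no call among the members or the named pathway genes changed. The term for Xist leaves Scf-GFP+ replicate 3 alone against whole marrow, and it moved Adam12 to 1.15, Spry1 to 3.18, Gpc6 to 3.49, Timp3 to 4.76, Etv1 to 0.75 (adjusted p = 0.0604) and Etv5 to 1.53 (adjusted p = 0.196). The mean of all rows moved Etv5 to 1.07. Of 192 recomputed counts of single pathway lists, 179 stayed within 1.5 times. Erbb4, Ereg, Epgn, Nrg3 and Nrg4 have no value with the dimmest genes left out. Markers, neighbours, nearest profiles and counts of groups without overlap were not recomputed. Low signals compress differences, which limits the sizes given for genes dim in whole marrow, such as Egfr, Kitl and Sdc2, or dim on all arrays, such as Ereg.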

Other observations

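The genes that lie next to the members in the RefSeq order were read in the same fit. Of 13 neighbours tested, 1 was called higher and 1 lower, where 9.01% and 7.89% of all genes were. Fut10, a fucosyltransferase gene next to Nrg1, was higher in Scf-GFP+ cells by 1.26 ± 0.15 SE (adjusted p = 0.00123), and Add2, a red cell membrane skeleton gene next to Tgfa, was lower at -2.76 ± 0.17 (adjusted p = 5.9e-05). Pgap3 and Mien1, which flank Erbb2, differed by -0.21 ± 0.17 and -0.50 ± 0.30, and Fbxo48, next to Egfr, by -0.86 ± 0.25. None of these 3 genes was called. Fbxo48 (limma adjusted p = 0.0471) and Pa2g4, next to Erbb3 (-0.74 ± 0.21, adjusted p = 0.0404), passed the adjusted p but not 2-fold. On the lower side, 13.2% of all genes passed the adjusted p. The neighbours were chosen for position after the members' values were seen.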
